A study of Homo sapiens with 8 samples.

Results

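The proteasome subunit genes were examined in RNA-seq libraries of the Burkitt's lymphoma line Raji and its derivative Raji-4RH, treated with chidamide or its vehicle DMSO. The genes were chosen by symbol, from a list of 35 that encode subunits of the proteolytic core particle (20S), the regulatory particle (19S) and the PA28 activator (11S). Of these, 33 were found among the 18143 genes that could be placed in the deposited table, and PSMB3 and PSMB10 were not analysed here. All 33 passed the filter on low values, and their lowest level in any library was 6.29 FPKM (PSMA2). FPKM is the read count of a gene scaled by its length and by the library total.

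Raji is a line of lymphoma B cells and is sensitive to rituximab, an antibody against the B cell surface protein CD20. Raji-4RH is rituximab resistant and was derived from Raji by repeated exposure to that antibody, so each line stands for 1 history of selection. Both were cultured in the same medium for 2-3 passages and then treated with DMSO or with 3 µM chidamide, an inhibitor of histone deacetylases, for 24 h, after which the cells were harvested by flow sorting. There were 2 libraries in each of the 4 groups. The labels do not say that the 2 libraries of a group came from separate cultures, so the p-values measure only the spread between these libraries.

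The proteasome degrades proteins that carry ubiquitin chains. Its core is a barrel of alpha and beta rings with the protease sites inside, and the regulatory particle binds, unfolds and feeds in the substrates, by means of a ring of ATPases in its base and a lid that removes ubiquitin. B cell malignancies such as myeloma and mantle cell lymphoma are treated with inhibitors of the core, and the transcription factor NFE2L1 (NRF1) is known to raise subunit genes together when proteasome activity is short.

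Library totals ran from 13991697 to 21193441 reads, and 90.7% to 93.2% of the reads lay in placed genes. The 2 libraries of every group were closest to each other, at a correlation across genes of 0.992 for Raji-4RH chidamide and of 0.998 for the other groups, and the spread within Raji-4RH chidamide exceeded sampling noise by the most (chi-square per degree of freedom 14.7, against 1.80 to 5.54). All 9 B cell markers were above 1 FPKM in every library. Their summed level was 1259 to 1311 FPKM in Raji DMSO, 1132 to 1144 in Raji chidamide, 823 to 867 in DMSO-treated Raji-4RH and 679.9 to 721 in Raji-4RH chidamide. The summed level of 5 T cell markers was 0.0712 to 0.0782 FPKM in Raji DMSO, 0.815 to 1.05 in Raji chidamide, 0.720 to 0.943 in DMSO-treated Raji-4RH and 3.98 to 4.95 in Raji-4RH chidamide. That of 4 myeloid markers was 0.979 to 0.981, 5.75 to 6.15, 0.826 to 0.897 and 7.90 to 8.10 FPKM in the same order, and that of 4 epithelial and stromal markers was at most 2.32 FPKM. CD8A, CD2 and CD3D were at 0 in both Raji DMSO libraries, and 1 of 5 T cell markers (CD3E) and 2 of 4 myeloid markers (LYZ and CSF1R) were above 1 FPKM in both Raji-4RH chidamide libraries. With chidamide the summed level of the B cell list was lower, and that of each of the other 3 lists higher, than with DMSO in both lines, and the part of these lists in the results below was not tested. Fewer cells of a kind and less RNA per cell cannot be told apart in such data.

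Promoters were available for 30 of the 35 genes in the RefSeq table (GRCh38.p14), and 5 are shown here because their genes carry the main findings. PSMC3 and PSMB5 showed the greatest falls with chidamide in Raji-4RH, PSMC4 differed most between the lines in its response, and PSME1 and PSME2, which lie close to each other, went in opposite directions in Raji-4RH. Each line gives the 250 bases before the transcription start, 5′ to 3′ on the strand of the gene, and capitals mark a match to any of 6 searched motifs.
PSMB5 (chr14:23035221-23035470, minus strand): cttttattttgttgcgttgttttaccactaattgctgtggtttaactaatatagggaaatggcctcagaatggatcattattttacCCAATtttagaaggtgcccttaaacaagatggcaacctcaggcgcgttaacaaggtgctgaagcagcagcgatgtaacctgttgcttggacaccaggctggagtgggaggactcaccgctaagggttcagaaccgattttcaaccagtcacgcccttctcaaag
PSMC3 (chr11:47426440-47426689, minus strand): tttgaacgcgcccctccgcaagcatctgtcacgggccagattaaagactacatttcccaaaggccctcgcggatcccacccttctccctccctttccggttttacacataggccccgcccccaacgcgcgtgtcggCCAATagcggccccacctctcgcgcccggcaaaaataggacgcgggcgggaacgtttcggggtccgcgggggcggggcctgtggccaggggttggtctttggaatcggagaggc
PSMC4 (chr19:39970915-39971164, plus strand): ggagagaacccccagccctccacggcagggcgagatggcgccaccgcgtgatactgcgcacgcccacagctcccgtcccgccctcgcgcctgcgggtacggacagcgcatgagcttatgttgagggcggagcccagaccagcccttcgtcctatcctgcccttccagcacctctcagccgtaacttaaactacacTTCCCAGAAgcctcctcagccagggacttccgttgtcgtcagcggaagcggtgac
PSME1 (chr14:24135944-24136193, plus strand): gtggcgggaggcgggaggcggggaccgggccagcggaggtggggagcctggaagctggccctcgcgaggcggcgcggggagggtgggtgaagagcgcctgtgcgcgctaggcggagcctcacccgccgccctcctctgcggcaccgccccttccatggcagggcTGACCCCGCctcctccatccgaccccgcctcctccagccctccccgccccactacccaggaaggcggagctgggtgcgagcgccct
PSME2 (chr14:24146611-24146860, minus strand): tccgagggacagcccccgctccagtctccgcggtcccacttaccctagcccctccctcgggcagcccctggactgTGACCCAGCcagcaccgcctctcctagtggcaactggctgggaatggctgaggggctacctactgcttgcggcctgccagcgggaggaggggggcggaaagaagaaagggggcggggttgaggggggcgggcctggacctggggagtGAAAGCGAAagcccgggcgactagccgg

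The motifs were searched on both strands of the window from 250 bases before to 50 after the start, with overlapping matches allowed. In capitals above, PSMB5 and PSMC3 each hold 1 CCAAT box (CCAAT, the letters bound by NF-Y), PSMC4 holds 1 GAS (TTCNNNGAA, bound by STAT factors), PSME1 holds 1 core of the antioxidant response element (TGACNNNGC, bound by NFE2L1), and PSME2 holds 1 such core and 1 core of the interferon response element ISRE (GAAANNGAA). Matches that reach past the start are not shown above: PSME1 also holds 1 ISRE core there, and PSMC4 holds 1 antioxidant response core. A CCAAT box stood in 15 of the 30 promoters (50%) and in 35.7% of the 27305 promoters of all genes. The antioxidant response core stood in 7 of 30 (23.3%, against 13.6% of all), the ISRE core in 6 of 30 (20%, against 8.29%) and the GAS in 4 of 30 (13.3%, against 7.88%). The E2F letters TTTCCCGC stood in 2 of 30 (6.67%, against 1.66%), and TTTGGCGC in 0 of 30 (against 0.659%). A match is a description of letters and no measured binding site.

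The subunit genes were expressed at unequal levels in every group. PSMA7, a subunit of the alpha ring, was the highest with 221 and 216 FPKM in Raji DMSO, 153 and 164 in Raji chidamide, 267 and 271 in Raji-4RH DMSO, and 169 and 156 in Raji-4RH chidamide. PSMA2, another alpha subunit, was the lowest with 7.52 and 8.57 FPKM in Raji DMSO, 7.76 and 7.29 in Raji chidamide, 8.86 and 8.13 in Raji-4RH DMSO, and 7.501 and 6.29 in Raji-4RH chidamide. The order from PSMA7 to PSMA2 held at both ends in all 4 groups, and the 2 libraries of a group differed by a median coefficient of variation of 1.43% to 2.74%. The median level over the 33 genes was 39.1 FPKM in Raji DMSO, 32.6 in Raji chidamide, 41.8 in DMSO-treated Raji-4RH and 25.9 in Raji-4RH chidamide. Genes with a longer joined exon length had lower FPKM (Spearman rho -0.79 across 33 genes, whose levels come from the same libraries). FPKM divides the reads by this same length, so a negative correlation is in part built in and is no result about expression. The ratio of the highest to the lowest level was 26.1 with that length and 28.3 with the length of the longest principal transcript.

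As a share of all reads, the subunit genes together took 0.510% ± 0.0052 (SD, n = 2) in Raji DMSO and 0.462% ± 0.0030 in Raji chidamide. With DMSO they took 0.566% ± 0.000080 in Raji-4RH, and with chidamide 0.40% ± 0.010. The share thus fell by 9.36% in Raji and by 29.2% in Raji-4RH, from a start that was 11% higher in Raji-4RH. The 19S base ATPases differed most in this respect, with a share that fell by 2.11% in Raji and by 36.4% in Raji-4RH.

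**Figure D1:**
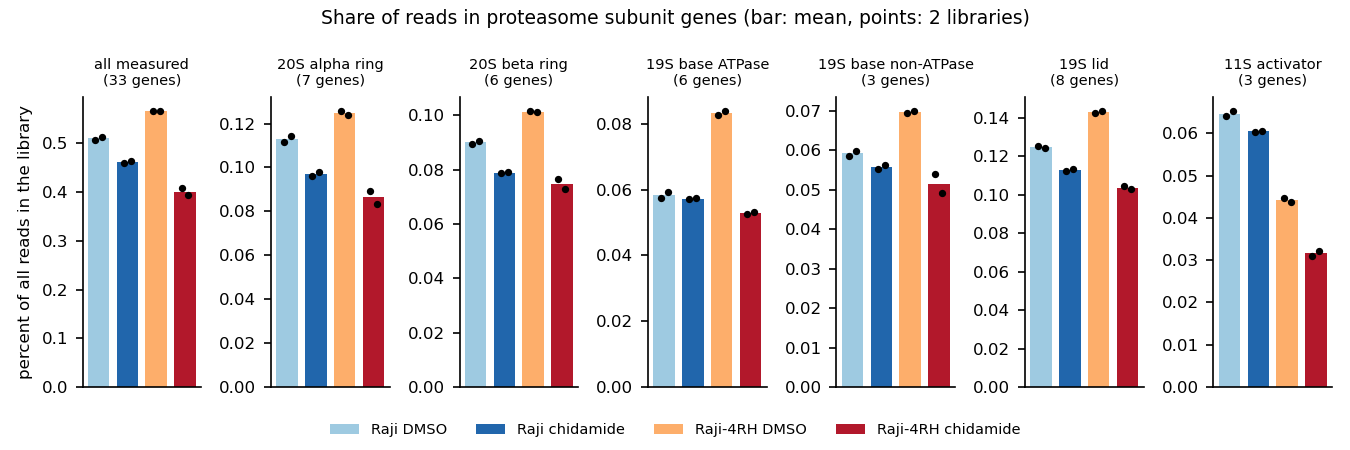
Reads in the measured subunit genes as a percentage of all reads in the library (y axis, from 0, each panel on its own scale), for all 33 genes and for each subcomplex. Bars are means of 2 libraries and points are the libraries; Raji-4RH DMSO stands highest and Raji-4RH chidamide lowest in every panel except that of the 11S activator, where both Raji groups stand above both Raji-4RH groups.

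The first comparison asked what chidamide did to the subunit genes in the resistant line Raji-4RH. Chidamide lowered 29 of the 33 genes and raised 1 (limma on log2(FPKM + 1), Benjamini-Hochberg adjusted p under 0.05 over all 10710 genes tested), with a median log2 fold change of -0.40. Over all genes tested, 74.9% were called, 43.3% higher and 31.6% lower, with a median of 0.093, and among the 6614 genes that averaged 5 FPKM or more 43.3% were called lower. The groups did not overlap for 32 of the 33 genes, as for 86.5% of all genes tested. All 7 alpha subunits, all 6 base ATPases and all 8 lid subunits fell, as did 4 of 6 beta subunits, 2 of 3 base non-ATPases (PSMD1 and PSMD2) and 2 of 3 activator subunits. PSMB1, PSMB4 and PSMD4 did not pass the test. With quantile normalization, which moved the median of all genes from 0.093 to -0.022 and the calls over all genes from 4642 higher and 3380 lower to 3718 and 4057, 21 members were called lower and 4 higher. PSMA1, PSMC4, PSMD3, PSMD7, PSMD12, PSMD13 and PSME2 then lost their call, at -0.19 to -0.0013. With median-centred samples 31 members were called lower and 0 higher. Leaving out 1 library ended the calls of PSMB7 and PSME1, given below, and that of PSMA2, which stood at -0.21 without Raji-4RH DMSO replicate 1 and -0.16 without Raji-4RH chidamide replicate 2.

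The largest falls in Raji-4RH were those of PSMC3, PSMB5 and PSMB2. PSMC3 encodes an ATPase of the 19S base, and its gene lies on chromosome 11 (chr11:47418769-47426473, GRCh38). It stood at 55.8 and 55.8 FPKM in Raji DMSO, 42.9 and 40.3 in Raji chidamide, 83.5 and 87.5 in Raji-4RH DMSO, and 37.9 and 37.4 in Raji-4RH chidamide. Its level fell by 55.96% in Raji-4RH (log2 fold change -1.16 ± 0.053 SE, limma adjusted p = 3.37e-07) and by 25.4% in Raji (log2 fold change -0.41 ± 0.053 SE, limma adjusted p = 0.000232). The libraries of Raji-4RH went from the highest PSMC3 level of the 4 groups to the lowest, with no overlap between any of the groups.

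PSMB5 encodes the beta subunit with chymotrypsin-like activity, the main target of bortezomib, and lies on chromosome 14 (chr14:23016543-23035230). It stood at 86.01 and 90.1 FPKM in Raji DMSO, 54.4 and 54.6 in Raji chidamide, 46.4 and 45.8 in Raji-4RH DMSO, and 21.7 and 21.4 in Raji-4RH chidamide. Both lines lost PSMB5 RNA with chidamide, by 53.2% in Raji-4RH (log2 fold change -1.06 ± 0.048 SE, limma adjusted p = 3.39e-07) and by 38.1% in Raji (log2 fold change -0.68 ± 0.048 SE, limma adjusted p = 9.57e-06). Raji-4RH chidamide was the lowest group, and Raji-4RH DMSO already stood below both Raji groups. The caspase-like subunit gene PSMB6 stood at 57.4 and 58.2 FPKM in Raji DMSO, 38.8 and 37.96 in Raji chidamide, 93.1 and 95.8 in Raji-4RH DMSO, and 49.5 and 50.6 in Raji-4RH chidamide. It too fell in both lines, by 47.01% in Raji-4RH (log2 fold change -0.90 ± 0.048 SE, limma adjusted p = 7.07e-07) and 33.6% in Raji (log2 fold change -0.58 ± 0.048 SE, limma adjusted p = 2.17e-05), but unlike PSMB5 it stood highest in Raji-4RH DMSO. The gene of the trypsin-like subunit, PSMB7, stood at 79.7 and 80.8 FPKM in Raji DMSO, 79.7 and 74.4 in Raji chidamide, 101 and 99.3 in Raji-4RH DMSO, and 94.3 and 82.03 in Raji-4RH chidamide. Its change was small in Raji-4RH (log2 fold change -0.19 ± 0.072 SE, limma adjusted p = 0.0415), turned to 0.072 with quantile normalization, where it was not called, and did not pass the test in Raji (log2 fold change -0.058 ± 0.072 SE, limma adjusted p = 0.521). The PSMB7 call in Raji-4RH was lost on leaving out any 1 library other than Raji-4RH chidamide replicate 1, and stood at -0.0885 without Raji-4RH chidamide replicate 2. Of the 3 constitutive catalytic subunits, PSMB5 and PSMB6 thus lost between 33.6% and 53.2% of their level, and PSMB7 stood 12.1% lower in Raji-4RH and 3.94% lower, not called, in Raji.

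Among the beta subunits without a protease site, PSMB2 fell from 48.9 and 47.9 to 24.8 and 25.4 FPKM in Raji-4RH (log2 fold change -0.92 ± 0.053 SE, limma adjusted p = 1.05e-06) and from 42.9 and 44.1 to 33.5 and 35.8 in Raji (log2 fold change -0.32 ± 0.053 SE, limma adjusted p = 0.000952). PSMB1 went from 76.3 and 75.5 to 74.5 and 67.4 FPKM in Raji-4RH (log2 fold change -0.10 ± 0.058 SE, limma adjusted p = 0.154), and PSMB4 from 96.8 and 98.7 to 91.9 and 90.2 (log2 fold change -0.10 ± 0.048 SE, limma adjusted p = 0.0852). Neither PSMB1 nor PSMB4 was called, and with quantile normalization the sign of both turned and both were called higher, at 0.19 and 0.17. The beta ring thus held both some of the greatest and some of the smallest changes of the complex.

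**Figure D2:**
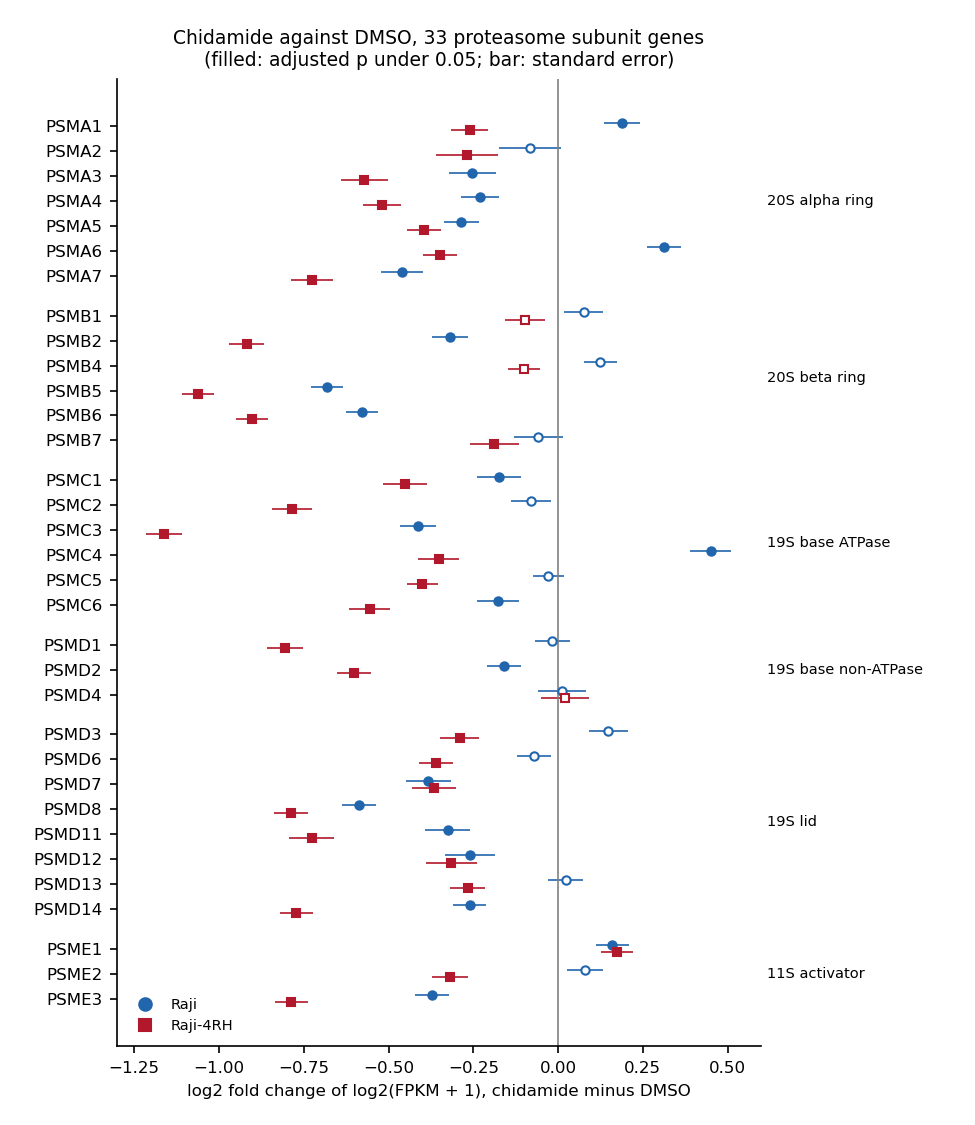
Log2 fold change of chidamide against DMSO (x axis, on the log2(FPKM + 1) scale) for each of 33 subunit genes, grouped by subcomplex, in Raji (circles) and Raji-4RH (squares). Bars are standard errors and filled symbols passed an adjusted p of 0.05; the squares lie between -1.16 (PSMC3) and 0.17 (PSME1), and most lie to the left of the circle of the same gene.

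In the alpha ring, which gates the entry to the core, the falls in Raji-4RH ranged from -0.26 (PSMA1) to -0.73 (PSMA7). PSMA7 fell by 39.7% (log2 fold change -0.73 ± 0.062 SE, limma adjusted p = 1.06e-05), PSMA3 by 33.7% and PSMA4 by 31.4%. The same 3 genes and PSMA5 fell in Raji as well, where PSMA7 lost 27.4% (log2 fold change -0.46 ± 0.062 SE, limma adjusted p = 0.000316). The calls of PSMA3 and PSMA4 in Raji were lost with quantile normalization, at -0.14 and -0.11. That of PSMA3 was also lost without Raji DMSO replicate 2 or either Raji chidamide library, at -0.26 to -0.19, and that of PSMA4 without Raji chidamide replicate 1, at -0.21. PSMA1 and PSMA6, by contrast, rose in Raji and fell in Raji-4RH. PSMA6 stood at 15.7 and 15.4 FPKM in Raji DMSO, 19.7 and 19.3 in Raji chidamide, 22.7 and 22.3 in Raji-4RH DMSO, and 17.9 and 16.9 in Raji-4RH chidamide. It rose by 25.7% in Raji (log2 fold change 0.31 ± 0.051 SE, limma adjusted p = 0.000917) and fell by 22.4% in Raji-4RH (log2 fold change -0.35 ± 0.051 SE, limma adjusted p = 0.000288). PSMA1 stood at 21.3 and 22.2 FPKM in Raji DMSO, 25.5 and 24.3 in Raji chidamide, 35.95 and 34.7 in Raji-4RH DMSO, and 29.97 and 28.7 in Raji-4RH chidamide, a rise of 14.6% in Raji (log2 fold change 0.19 ± 0.054 SE, limma adjusted p = 0.0158) against a fall of 16.99% in Raji-4RH (log2 fold change -0.26 ± 0.054 SE, limma adjusted p = 0.00219). The PSMA1 call in Raji was lost without Raji DMSO replicate 1, at 0.16, and without Raji chidamide replicate 1, at 0.15. With quantile normalization the PSMA1 call in Raji-4RH was lost, at -0.035, and with median-centred samples that in Raji was lost, at 0.15. For both genes, the 2 lines stood closer together under chidamide than under DMSO.

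All 6 ATPases of the 19S base fell in Raji-4RH, with log2 fold changes from -1.16 (PSMC3) to -0.35 (PSMC4). PSMC2 stood at 22.3 and 24.5 FPKM in Raji DMSO, 21.97 and 22.1 in Raji chidamide, 42.8 and 40.7 in Raji-4RH DMSO, and 23.5 and 24.2 in Raji-4RH chidamide. It fell by 43.01% in Raji-4RH (log2 fold change -0.79 ± 0.059 SE, limma adjusted p = 4.85e-06) and did not pass the test in Raji (log2 fold change -0.081 ± 0.059 SE, limma adjusted p = 0.271), and under chidamide the 2 lines were not called apart (log2 fold change 0.11 ± 0.059 SE, limma adjusted p = 0.132). PSMC4 stood at 49.5 and 49.2 FPKM in Raji DMSO, 64.8 and 70.999 in Raji chidamide, 52.9 and 56.001 in Raji-4RH DMSO, and 41.7 and 43.1 in Raji-4RH chidamide. It was the member with the largest rise in Raji, by 37.5% (log2 fold change 0.45 ± 0.060 SE, limma adjusted p = 0.000294), and fell by 22.1% in Raji-4RH (log2 fold change -0.35 ± 0.060 SE, limma adjusted p = 0.000725), a call lost with quantile normalization. A second copy of PSMC4 is annotated on an alternate sequence of chromosome 19, so its reads may be split between the copies. In Raji, PSMC1, PSMC3 and PSMC6 fell, and PSMC2 and PSMC5 did not pass the test. The PSMC1 call in Raji was lost on leaving out any 1 of the Raji or DMSO libraries, at -0.23 to -0.12. The PSMC6 call was lost on leaving out any 1 of these other than Raji DMSO replicate 1, at -0.18 to -0.10.

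PSMD1, PSMD2 and PSMD4 encode the remaining subunits of the base, of which the first pair are large scaffolds and PSMD4 is a receptor for ubiquitin chains. PSMD1 stood at 29.3 and 29.9 FPKM in Raji DMSO, 29.4 and 29.1 in Raji chidamide, 23.1 and 23.01 in Raji-4RH DMSO, and 13.2 and 12.3 in Raji-4RH chidamide. Its level fell by 44.6% in Raji-4RH (log2 fold change -0.80 ± 0.052 SE, limma adjusted p = 2.11e-06) and moved little in Raji, where the groups overlapped (log2 fold change -0.017 ± 0.052 SE, limma adjusted p = 0.809). PSMD2 fell in both lines, by 34.6% in Raji-4RH (log2 fold change -0.60 ± 0.051 SE, limma adjusted p = 9.8e-06) and 10.6% in Raji (log2 fold change -0.16 ± 0.051 SE, limma adjusted p = 0.0254). The PSMD2 call in Raji was lost on leaving out any 1 of the Raji or DMSO libraries, at -0.18 to -0.14, and with quantile normalization, at -0.011. PSMD4 stood at 40.2 and 40.97 FPKM in Raji DMSO, 39.9 and 42.03 in Raji chidamide, 64.4 and 65.3 in Raji-4RH DMSO, and 70.6 and 61.2 in Raji-4RH chidamide. The DMSO and chidamide libraries of PSMD4 overlapped in each line (log2 fold change 0.020 ± 0.070 SE in Raji-4RH and 0.012 ± 0.070 SE in Raji), while the 2 lines stood apart from each other. With quantile normalization PSMD4 was called higher with chidamide in Raji-4RH, at 0.29.

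The 8 lid subunits fell in Raji-4RH by log2 fold changes between -0.27 (PSMD13) and -0.79 (PSMD8). PSMD14 is the deubiquitinase of the lid, which cuts ubiquitin chains off the substrate, and stood at 12.97 and 13.5 FPKM in Raji DMSO, 10.8 and 10.98 in Raji chidamide, 24.1 and 24.3 in Raji-4RH DMSO, and 13.8 and 13.8 in Raji-4RH chidamide. It fell by 43.1% in Raji-4RH (log2 fold change -0.77 ± 0.049 SE, limma adjusted p = 1.85e-06) and by 17.8% in Raji (log2 fold change -0.26 ± 0.049 SE, limma adjusted p = 0.00194). PSMD8 stood at 65.8 and 62.6 FPKM in Raji DMSO, 42.9 and 41.9 in Raji chidamide, 45.6 and 45.4 in Raji-4RH DMSO, and 25.8 and 26.1 in Raji-4RH chidamide, falls of 43.01% in Raji-4RH (log2 fold change -0.79 ± 0.049 SE, limma adjusted p = 1.76e-06) and 33.9% in Raji (log2 fold change -0.59 ± 0.049 SE, limma adjusted p = 2.42e-05). PSMD11 and PSMD12, lid scaffold subunits, fell in both lines, as did PSMD7, the partner of PSMD14. The PSMD12 call in Raji was lost on leaving out any 1 of the 4 Raji libraries, at -0.28 to -0.25. With quantile normalization it was lost in Raji, at -0.20, and in Raji-4RH, at -0.19. PSMD3, PSMD6 and PSMD13 fell in Raji-4RH (log2 fold changes -0.29, -0.36 and -0.27) and did not pass the test in Raji (0.15, -0.071 and 0.023). With quantile normalization PSMD3 stood at -0.0013, PSMD13 at -0.037 and PSMD7 at -0.16 in Raji-4RH, none of them called.

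**Figure D3:**
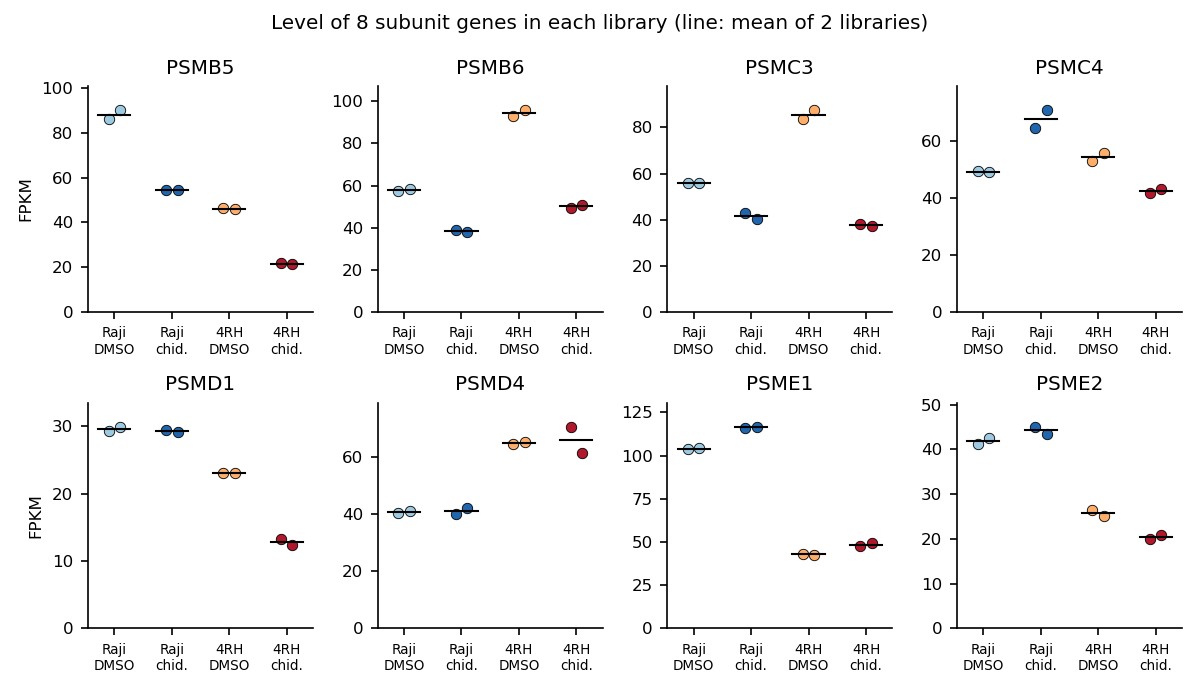
FPKM (y axis, from 0) of 8 subunit genes in each of the 8 libraries, by line and treatment, with a line at the mean of each pair; "4RH" stands for Raji-4RH and "chid." for chidamide. PSMB5 fell in both lines, PSMC4 rose in Raji and fell in Raji-4RH, and PSME1 stood at 42.4 to 49.4 FPKM in the Raji-4RH libraries against 104 to 117 in the Raji libraries.

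The 3 activator genes did not move together. PSME1 and PSME2 encode the PA28 subunits that are known to be induced by interferon and to favour the making of antigenic peptides, and their genes lie 4395 bases apart on chromosome 14. PSME1 stood at 104 and 104 FPKM in Raji DMSO, 116 and 117 in Raji chidamide, 43.2 and 42.4 in Raji-4RH DMSO, and 47.4 and 49.4 in Raji-4RH chidamide. It was the single member that rose in both lines, by 13.1% in Raji-4RH (log2 fold change 0.17 ± 0.048 SE, limma adjusted p = 0.0103) and 11.8% in Raji (log2 fold change 0.16 ± 0.048 SE, limma adjusted p = 0.0198). With median-centred samples PSME1 was called in neither line, at 0.097 in Raji-4RH and 0.12 in Raji. The PSME1 call in Raji-4RH was lost without Raji-4RH DMSO replicate 2, at 0.16, and the call in Raji was lost on leaving out any 1 of the 4 Raji libraries, at 0.15 to 0.16. PSME2 stood at 41.1 and 42.5 FPKM in Raji DMSO, 45.04 and 43.5 in Raji chidamide, 26.4 and 25.04 in Raji-4RH DMSO, and 19.99 and 20.9 in Raji-4RH chidamide. It fell by 20.6% in Raji-4RH (log2 fold change -0.32 ± 0.054 SE, limma adjusted p = 0.000663, a call lost with quantile normalization) and did not pass the test in Raji (log2 fold change 0.079 ± 0.054 SE, limma adjusted p = 0.235). PSME3, the nuclear PA28 subunit, fell in both lines, by 42.8% in Raji-4RH (log2 fold change -0.79 ± 0.049 SE, limma adjusted p = 1.76e-06) and 23.1% in Raji (log2 fold change -0.37 ± 0.049 SE, limma adjusted p = 0.000285). The summed level of PSME1 and PSME2, divided by the median alpha subunit, was 4.90 ± 0.054 (SD, n = 2) in Raji DMSO, 6.42 ± 0.17 in Raji chidamide, 2.37 ± 0.026 in DMSO-treated Raji-4RH and 3.61 ± 0.41 in Raji-4RH chidamide. The groups did not overlap in any of these 4 comparisons, and each gave p = 0.333 in a two-sided exact permutation test, the smallest that 2 against 2 libraries allow. The alpha subunit at the median was not the same gene in every library. In Raji-4RH the summed level of the alpha subunits was 34.3% lower with chidamide, while PSME1 and PSME2 moved in opposite directions. Without division by gene length the rise was smaller in Raji-4RH and much smaller in Raji, as described in the last paragraph.

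In Raji, the same treatment lowered 17 of the 33 genes and raised 4 (PSMC4, PSMA6, PSMA1 and PSME1), with a median log2 fold change of -0.16. Over all genes tested 60% were called in Raji, 31.5% higher and 28.5% lower, with a median of 0.017, and 38.1% of those that averaged 5 FPKM or more were called lower. The largest falls were those of PSMB5, PSMD8 and PSMB6, given above. With median-centred samples 17 members were called lower and 2 higher (PSMC4 and PSMA6). With quantile normalization 13 members were lower and 8 higher, and without Raji chidamide replicate 1 the calls dropped from 21 to 13. Called with a log2 fold change of at least 0.5 in size were 3 of 33 members in Raji, where 24% of all genes tested were, and 15 of 33 in Raji-4RH, where 42.6% were.

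Whether the 2 lines differed in their response was tested by the difference of the 2 chidamide effects. That difference was negative and passed the test for 25 of the 33 members and was positive and called for 0 of them, with a median of -0.32. Over all genes tested 48.8% were called, 27.2% positive and 21.7% negative, with a median of 0.038, and 27% of those that averaged 5 FPKM or more were called negative. A difference of at least 0.5 in size was called for 7 of 33 members and for 25% of all genes. Leaving out 1 library, the members called ranged from 19 (without Raji chidamide replicate 1 or either Raji-4RH DMSO library) to 27 (without Raji-4RH chidamide replicate 1). With quantile normalization 19 were negative and 1 was positive. Called were 5 of 7 alpha subunits, 4 of 6 beta subunits, all 6 ATPases, 2 of 3 other base subunits, 6 of 8 lid subunits and 2 of 3 activator subunits. The 3 largest differences were those of PSMC4 (-0.80 ± 0.085 SE, limma adjusted p = 0.000167), PSMD1 (-0.79 ± 0.074 SE, limma adjusted p = 8.84e-05) and PSMC3 (-0.75 ± 0.075 SE, limma adjusted p = 0.000125). PSMC4 had risen in Raji and fallen in Raji-4RH, PSMD1 had fallen in Raji-4RH alone among the called changes, and PSMC3 had fallen in both lines but further in Raji-4RH. The deubiquitinase gene PSMD14 also fell further in Raji-4RH (-0.51 ± 0.069 SE, limma adjusted p = 0.000561), as did PSMB5 (-0.38 ± 0.069 SE, limma adjusted p = 0.00241). For PSME1 the difference was 0.014 ± 0.068 SE (limma adjusted p = 0.884), and with quantile normalization it was called, at 0.21. For PSMB7 it was -0.13 ± 0.10 SE (limma adjusted p = 0.319).

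The lines were next compared with each other under DMSO, using the same Raji-4RH DMSO and Raji DMSO libraries that served as controls above, so that these comparisons are not independent. Under DMSO, 21 of the 33 genes were higher in Raji-4RH than in Raji and 9 were lower. The median over the 33 genes was 0.21 on the log2 scale. Of all genes tested 73.6% were called, 41.2% higher and 32.4% lower, with a median of 0.063, and 35.6% of those that averaged 5 FPKM or more were called lower. At 0.5 or more in size 12 of 33 members and 39.7% of all genes were called. Of the member calls, 6 were lost on leaving out 1 library (PSMB2, PSMB4, PSMD3, PSMD11, PSMD12 and PSME3). Higher in Raji-4RH were 4 alpha subunits, 5 beta subunits, 5 ATPases, 2 other base subunits and 5 lid subunits, and all 3 activator genes were lower. PSMD14 was higher by 82.7% (log2 fold change 0.82 ± 0.049 SE, limma adjusted p = 1.15e-06), PSMC2 by 78.4% (log2 fold change 0.81 ± 0.059 SE, limma adjusted p = 4.03e-06) and PSMB6 by 63.4% (log2 fold change 0.70 ± 0.048 SE, limma adjusted p = 2.74e-06). In contrast, PSME1 was 58.9% lower (log2 fold change -1.26 ± 0.048 SE, limma adjusted p = 8.15e-08), PSMB5 47.6% lower (log2 fold change -0.92 ± 0.048 SE, limma adjusted p = 5.66e-07) and PSME2 38.5% lower (log2 fold change -0.68 ± 0.054 SE, limma adjusted p = 6.64e-06). The catalytic subunits therefore stood on different sides, PSMB5 below its level in Raji and PSMB6 and PSMB7 (log2 fold change 0.32 ± 0.072 SE, limma adjusted p = 0.00373) above it.

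Under chidamide, 9 of the 33 genes were higher in Raji-4RH and 17 were lower, at a median of -0.14 on the log2 scale. Of all genes tested 79.3% were called, 44.3% higher and 35% lower, with a median of 0.090. Of those that averaged 5 FPKM or more 42.1% were called lower, with a median of -0.044. At 0.5 or more in size 10 of 33 members and 49.1% of all genes were called. Of the member calls, 8 were lost on leaving out 1 library (PSMA5, PSMA6, PSMB7, PSMC3, PSMD2, PSMD3, PSMD6 and PSMD11). With quantile normalization the members stood at 11 higher and 11 lower, with a median of -0.0081. Of 5 ATPases higher in Raji-4RH under DMSO, 1 (PSMC5) was called higher under chidamide. PSMB5 was 60.4% lower in Raji-4RH (log2 fold change -1.30 ± 0.048 SE, limma adjusted p = 6.15e-08), PSME1 58.4% lower (log2 fold change -1.25 ± 0.048 SE, limma adjusted p = 7.36e-08), PSMD1 56.3% lower (log2 fold change -1.14 ± 0.052 SE, limma adjusted p = 1.97e-07) and PSME2 53.9% lower (log2 fold change -1.08 ± 0.054 SE, limma adjusted p = 3.12e-07). PSMD4 was 60.9% higher (log2 fold change 0.67 ± 0.070 SE, limma adjusted p = 3.03e-05), PSMB6 30.4% higher (log2 fold change 0.37 ± 0.048 SE, limma adjusted p = 0.000106) and PSMB1 25.7% higher (log2 fold change 0.32 ± 0.058 SE, limma adjusted p = 0.000834). PSMD14 was 26.4% higher (log2 fold change 0.31 ± 0.049 SE, limma adjusted p = 0.000377) and PSMB7 14.4% higher (log2 fold change 0.19 ± 0.072 SE, limma adjusted p = 0.0385). The PSMB7 call was lost on leaving out any 1 library other than Raji-4RH chidamide replicate 2, at 0.0894 to 0.24. PSMB5, PSME1, PSME2, PSME3, PSMA3, PSMA4, PSMD1, PSMD7 and PSMD8 were lower in Raji-4RH under both treatments, which is 9 of the 9 lower under DMSO and 9 of the 17 lower under chidamide.

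**Figure D4:**
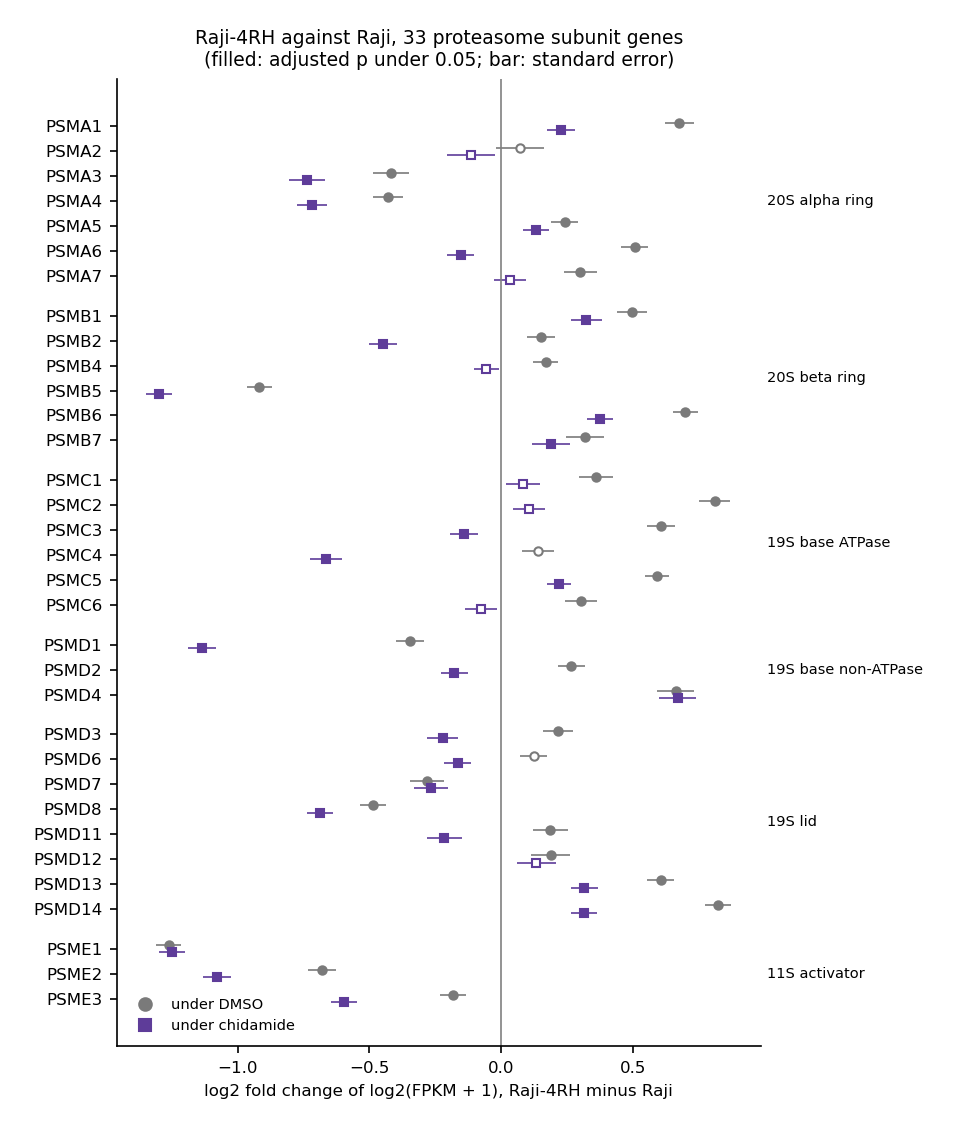
Log2 fold change of Raji-4RH against Raji (x axis, on the log2(FPKM + 1) scale) for each of 33 subunit genes, under DMSO (circles) and under chidamide (squares). Bars are standard errors and filled symbols passed an adjusted p of 0.05; PSME1 lies at -1.26 and -1.25, PSMD4 at 0.66 and 0.67, and PSMC4 at 0.14 and -0.66.

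Genes around the proteasome were taken from 7 lists of 57 genes in all, of which 48 were tested. In Raji-4RH 27 of them fell and 8 rose with chidamide, and in Raji 21 fell and 9 rose. The 35 of 48 and 30 of 48 called stand beside 74.9% and 60% of all genes tested. Of the assembly chaperones, which build the core and the base, 6 of 9 fell in Raji-4RH and 8 of 9 in Raji, and 0 rose. Over all genes tested 31.6% fell and 43.3% rose in Raji-4RH, and 28.5% fell and 31.5% rose in Raji. PSMG1, which pairs with PSMG2 to assemble the alpha ring, stood at 56.9 and 57.5 FPKM in Raji DMSO, 32.03 and 30.8 in Raji chidamide, 39.1 and 37.7 in Raji-4RH DMSO, and 22.3 and 17.5 in Raji-4RH chidamide. It fell by 48.3% in Raji-4RH (log2 fold change -0.93 ± 0.10 SE, limma adjusted p = 3.42e-05) and 45.1% in Raji (log2 fold change -0.84 ± 0.10 SE, limma adjusted p = 0.000122). The log2 fold changes in Raji-4RH and Raji were -0.44 and -0.23 for PSMG2, -0.89 and -0.38 for PSMG3, -0.68 and -0.62 for PSMG4, and -0.38 and -0.36 for PSMD9, all called. PSMD10 fell in both (-0.27 and -0.46), and PSMD5 (-0.033 and -0.28) and PAAF1 (-0.12 and -0.20) were called in Raji alone. POMP, which helps the beta subunits mature, stood at 72.2 and 73.98 FPKM in Raji DMSO, 80.9 and 84.2 in Raji chidamide, 106 and 101 in Raji-4RH DMSO, and 135 and 102 in Raji-4RH chidamide and was called in neither line (log2 fold change 0.17 ± 0.11 SE, limma adjusted p = 0.185 in Raji-4RH). For PSMG3 the fall was greater in Raji-4RH (difference -0.50 ± 0.084 SE, limma adjusted p = 0.00163).

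In the NFE2L1 list 4 of 8 genes fell in Raji-4RH and 3 of 8 in Raji, and 0 rose. Of all genes tested 31.6% fell and 43.3% rose in Raji-4RH, and 28.5% fell and 31.5% rose in Raji. Among genes that averaged 5 FPKM or more, 43.3% fell in Raji-4RH and 38.1% in Raji, and the falls in the list were near these shares. NFE2L1 itself stood at 28.2 and 27.4 FPKM in Raji DMSO, 28.7 and 28.8 in Raji chidamide, 36.1 and 37.9 in Raji-4RH DMSO, and 30.02 and 26.3 in Raji-4RH chidamide. It fell by 23.9% in Raji-4RH (log2 fold change -0.39 ± 0.067 SE, limma adjusted p = 0.000822) and did not pass the test in Raji (log2 fold change 0.049 ± 0.067 SE, limma adjusted p = 0.565), and the effects differed between the lines (-0.43 ± 0.10 SE, limma adjusted p = 0.0062). NFE2L2, its relative in the oxidative stress response, fell in Raji-4RH (log2 fold change -0.50 ± 0.072 SE, limma adjusted p = 0.000242) and stood at -0.11 in Raji, not called. MAFG, a small MAF partner of both, behaved alike (-0.36 in Raji-4RH and -0.052 in Raji, the latter not called). KEAP1, which hands NFE2L2 to a ubiquitin ligase, stood at 30.02 and 28.7 FPKM in Raji DMSO, 17.9 and 17.96 in Raji chidamide, 28.1 and 28.6 in Raji-4RH DMSO, and 13.6 and 13.9 in Raji-4RH chidamide. It fell by 51.5% in Raji-4RH (log2 fold change -0.99 ± 0.049 SE, limma adjusted p = 5.16e-07) and 38.9% in Raji (log2 fold change -0.68 ± 0.049 SE, limma adjusted p = 1.07e-05). DDI2, the protease that activates NFE2L1, was called in Raji alone (-0.30, against -0.022 in Raji-4RH), as was MAFK (-0.24 and -0.025). NGLY1 and MAFF were called in neither line. Under DMSO, NFE2L1 was 33.1% higher in Raji-4RH (log2 fold change 0.40 ± 0.067 SE, limma adjusted p = 0.000701) and NFE2L2 112% higher (log2 fold change 0.99 ± 0.072 SE, limma adjusted p = 3.91e-06).

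**Figure D5:**
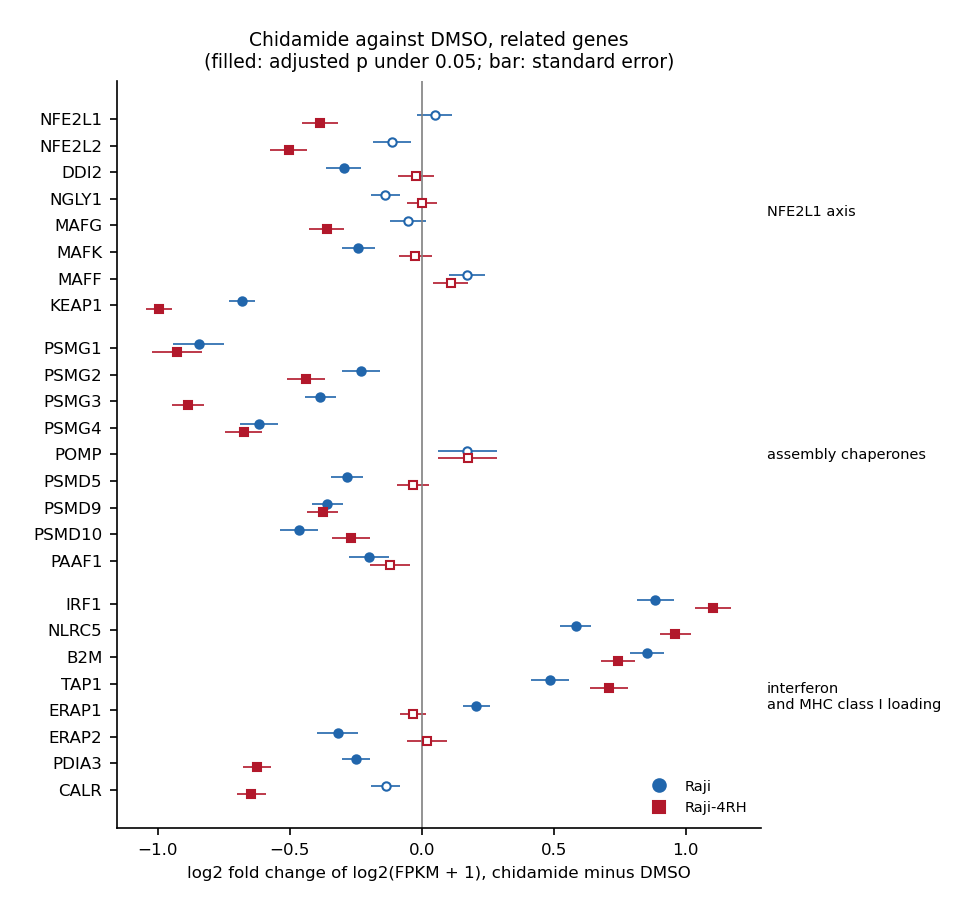
Log2 fold change of chidamide against DMSO (x axis, on the log2(FPKM + 1) scale) in Raji (circles) and Raji-4RH (squares) for genes of the NFE2L1 list, the assembly chaperones, and the interferon and MHC class I list. Bars are standard errors and filled symbols passed an adjusted p of 0.05; chaperones lie between -0.93 and 0.17, and IRF1, NLRC5, B2M and TAP1 lie to the right of 0 in both lines.

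Of 8 tested genes of interferon response and MHC class I loading, the route that uses PSME1 and PSME2, 4 rose and 2 fell in Raji-4RH, where 43.3% and 31.6% of all genes did. In Raji 5 rose and 2 fell, where 31.5% and 28.5% did. Those that fell, named after their values were seen, were the chaperones PDIA3 and CALR in Raji-4RH (-0.62 and -0.65) and PDIA3 and ERAP2 in Raji (-0.25 and -0.32). The transcription factor IRF1 stood at 7.21 and 6.88 FPKM in Raji DMSO, 13.4 and 14.4 in Raji chidamide, 2.502 and 2.33 in Raji-4RH DMSO, and 6.003 and 6.69 in Raji-4RH chidamide, a rise in Raji-4RH (log2 fold change 1.10 ± 0.069 SE, limma adjusted p = 1.71e-06) and in Raji (log2 fold change 0.88 ± 0.069 SE, limma adjusted p = 1.58e-05). B2M, the light chain of MHC class I, stood at 99.7 and 102 FPKM in Raji DMSO, 185 and 182 in Raji chidamide, 144.5 and 145 in Raji-4RH DMSO, and 229 and 258 in Raji-4RH chidamide. It rose in Raji-4RH (log2 fold change 0.74 ± 0.064 SE, limma adjusted p = 1.13e-05) and in Raji (log2 fold change 0.85 ± 0.064 SE, limma adjusted p = 1.31e-05). NLRC5, the activator of MHC class I genes, rose by 0.96 in Raji-4RH and 0.58 in Raji on the log2 scale, and both IRF1 and NLRC5 were lower in Raji-4RH under DMSO (-1.24 and -1.36). The peptide trimming enzyme ERAP2 fell in Raji (log2 fold change -0.32 ± 0.077 SE, limma adjusted p = 0.00717) and was higher in Raji-4RH under chidamide (log2 fold change 0.57 ± 0.077 SE, limma adjusted p = 0.000144).

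Of the remaining lists, all 8 tested shuttles and segregase genes fell in Raji-4RH and 5 fell in Raji. The counts of this paragraph stand beside 31.6% of all genes tested that fell and 43.3% that rose in Raji-4RH. In Raji these shares were 28.5% and 31.5%. UFD1, a cofactor of the unfolding ATPase VCP, fell by -0.99 in Raji-4RH and -0.33 in Raji on the log2 scale. VCP itself was lower in Raji-4RH than in Raji under DMSO (log2 fold change -0.83 ± 0.065 SE, limma adjusted p = 6.49e-06) and under chidamide (log2 fold change -1.10 ± 0.065 SE, limma adjusted p = 8.6e-07). Among enzymes bound to the proteasome, 3 of 5 fell in Raji-4RH and 2 in Raji, and KIAA0368 (ECM29), which holds core and cap together, showed the greatest fall in Raji-4RH, from 21.8 and 20.7 to 8.81 and 9.19 FPKM (log2 fold change -1.16 ± 0.059 SE, limma adjusted p = 5.86e-07). The ubiquitin gene UBB rose in both lines, from 248 and 252 to 451 and 368 FPKM in Raji-4RH (log2 fold change 0.70 ± 0.10 SE, limma adjusted p = 0.000189) and from 162 and 160.1 to 249 and 278 in Raji (log2 fold change 0.71 ± 0.10 SE, limma adjusted p = 0.000322). ADRM1, a ubiquitin receptor of the 19S base, fell in Raji-4RH (log2 fold change -0.82 ± 0.10 SE, limma adjusted p = 8.4e-05) and did not pass the test in Raji (log2 fold change -0.11 ± 0.10 SE, limma adjusted p = 0.376). PSMF1, an inhibitor of the core, was higher in Raji-4RH than in Raji under DMSO (log2 fold change 0.86 ± 0.071 SE, limma adjusted p = 8.46e-06) and under chidamide (log2 fold change 0.48 ± 0.071 SE, limma adjusted p = 0.00025). Of the 5 tested genes of other subunits and caps, to which ADRM1 and PSMF1 belong, 3 fell and 1 rose in Raji-4RH, and 1 fell and 2 rose in Raji. In the ubiquitin supply list of UBB, 3 of 5 rose and 1 fell in Raji-4RH, and 2 rose in Raji.

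In the lines compared under DMSO, 22 of the 48 related genes were higher in Raji-4RH and 19 were lower, and under chidamide 13 were higher and 23 were lower. Of all genes tested 41.2% were higher and 32.4% lower under DMSO, and 44.3% higher and 35% lower under chidamide. The chidamide effects on related genes differed between the lines for 22 of 48, with 16 differences negative and 6 positive, beside 48.8% of all genes tested. Without Raji chidamide replicate 2 or without Raji-4RH DMSO replicate 2 they differed for 11.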

How the data were processed

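RNA-seq of 8 libraries (Raji and Raji-4RH, DMSO or chidamide, 2 per group) was analysed. Groups and conditions were taken from the sample labels. The deposited table holds, for every gene label, a length and an FPKM value from each library. Per the labels and the submitters' processing notes, libraries were made with a NEBNext Ultra kit, and HISAT2 2.0.5, SAMtools 1.7, HTSeq 0.9.1 and DESeq2 1.22.2 with GRCh38 are named. The use of strand in counting is not given in the sources used here, so reads of PSMA3 and PSMD6 cannot be told apart from those of their antisense genes.

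The last 662 of 63967 rows repeat the first 662, and values stand 0 to 14 rows below their labels, in 12 segments. Each gene's values were taken from the row that a fixed shift gives, and FPKM was rescaled by the ratio of the 2 lengths. Of the members, 20 needed no shift and 13 a shift of 1 to 13 rows (PSMC3, PSMC2, PSMD4 and PSMB4 3 rows, PSMD1 5 rows, PSMB6 and PSMB7 1 row). All 13 shifted members were at 1 FPKM or more in every library at the placed row, and 3 were so at the label's own row. Genes outside the segments were left out, among them PSMB3, PSMB10, with which the share of PSMB10 could not be computed, and both erythroid markers. The table length equals the joined exon length of GENCODE v29 for all 33 members.

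Differences were tested with limma 3.58.1 (lmFit, then eBayes with trend, R 4.3.3) on log2(FPKM + 1), in 1 fit of 4 group means over 8 libraries. Genes had to reach 1 FPKM in 2 or more libraries, which 10710 did, and a call was an adjusted p (Benjamini-Hochberg, over all of these) under 0.05. A fold change on this scale understates the change of low genes. On simulated data 81 of 98 genes changed by 0.5 and 102 of 102 changed by 1 on the log2 scale were called, as were 21 unchanged genes. The simulated libraries all had the same spread, and few genes were changed. In the data the spread was unequal (chi-square per degree of freedom 14.7 in Raji-4RH chidamide, 1.80 in Raji chidamide) and most genes were called. These figures therefore do not describe how well the fit recovers changes in the data. Alternatives were quantile normalization, median-centred samples, no trend, no filter, a filter on the mean (1 FPKM), a pseudocount of 0.1, a replicate block, fits restricted to the libraries being compared, a minimum log2 fold change of 0.5, voom on reads recovered from FPKM (100% whole within 0.01 reads), rows as deposited, only members shifted by at most 1 row, and leaving out each library.

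The members and gene lists were chosen with earlier results of these data known, and the background of genes averaging 5 FPKM or more was added after the values were seen. Per comparison, the 3 largest rises and falls among called members were named, together with PSMB5, PSMB6, PSMB7, PSMD14, PSME1 and PSME2. Of the related genes, those of the NFE2L1 list, the assembly chaperones and the 2 largest called rises and falls (genes averaging 5 FPKM or more) were named, and other members were named by role. Of the related genes chosen, 1 is not reported here.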

Additional observations from a re-analysis of the deposited data

Results flagged for a closer look

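The genes below were singled out because the chidamide effect differed between Raji-4RH and Raji by the test of the difference itself (limma, Benjamini-Hochberg adjusted p under 0.05), which 48.8% of all genes tested passed. Values are the log2 fold change in Raji-4RH minus that in Raji. In the alpha ring the difference was -0.66 for PSMA6, -0.45 for PSMA1, -0.32 for PSMA3, -0.29 for PSMA4 and -0.27 for PSMA7. In the beta ring it was -0.60 for PSMB2, -0.38 for PSMB5, -0.32 for PSMB6 and -0.23 for PSMB4. For the base ATPases it was -0.80 for PSMC4, -0.75 for PSMC3, -0.70 for PSMC2, -0.38 for PSMC6, -0.37 for PSMC5 and -0.28 for PSMC1. Among the other base subunits it was -0.79 for PSMD1 and -0.44 for PSMD2. The lid subunits gave -0.51 for PSMD14, -0.44 for PSMD3, -0.40 for PSMD11, -0.29 for PSMD13, -0.29 for PSMD6 and -0.20 for PSMD8. The activator genes gave -0.41 for PSME3 and -0.40 for PSME2. PSMC4, PSMA6 and PSMA1 were called higher in Raji and lower in Raji-4RH. The Raji-4RH calls of PSMC4 and PSMA1 were lost with quantile normalization, and the Raji call of PSMA1 was lost with median-centred samples. Raji-4RH chidamide held the 2 least similar libraries of a group, and leaving out 1 library gave 19 to 27 members that differed in place of 25, the lowest without Raji chidamide replicate 1 or either Raji-4RH DMSO library and the highest without Raji-4RH chidamide replicate 1. The calls of PSMA3, PSMA4, PSMA7, PSMB4, PSMC1, PSMD8 and PSMD13 were each lost on leaving out any 1 of 2 to 6 libraries, with differences from -0.33 to -0.17. With quantile normalization those of PSMA3, PSMA4, PSMA7, PSMB4, PSMD8 and PSMD13 were lost, at -0.24 to -0.053.

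Among the related genes named above, the difference was negative at -0.71 for ADRM1, -0.67 for UFD1, -0.55 for KIAA0368, -0.50 for PSMG3, -0.43 for NFE2L1, -0.39 for NFE2L2, -0.38 for PSMF1, -0.31 for KEAP1, -0.31 for MAFG and -0.27 for VCP. It was positive at 0.25 for PSMD5, 0.27 for DDI2, 0.34 for ERAP2 and 0.38 for NLRC5.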

How the results depend on the processing

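Across all alternatives that refitted the model, 2558 of 2772 values for single members kept their direction and their side of the threshold, 170 lost their call, 38 gained one and 6 changed sign with at least one call. The 6 were all under quantile normalization. In Raji-4RH with chidamide, PSMB1 turned to 0.19, PSMB4 to 0.17 and PSMB7 to 0.072, and in Raji-4RH against Raji under chidamide PSMB4 turned to 0.15, PSMC3 to 0.037 and PSMD2 to 0.025. The cause was not tested.

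With quantile normalization the median log2 fold change of the members was -0.35 for chidamide in Raji-4RH, -0.27 for the difference of the effects, 0.26 for the lines under DMSO and -0.0081 under chidamide. With median-centred samples it was -0.48 in Raji-4RH and -0.22 for the lines under chidamide, and with rows as deposited it was -0.079 in Raji. A minimum log2 fold change of 0.5 left fewer calls by construction, with 15 members in Raji-4RH, 3 in Raji, 7 for the difference, 12 for the lines under DMSO and 10 under chidamide (of all genes 42.6%, 24%, 25%, 39.7% and 49.1%), and with 19, 9, 6, 20 and 16 related genes in the same order. Leaving out each library in turn, the members called in Raji ranged from 13 (without Raji chidamide replicate 1) to 23, their median from -0.18 to -0.10 (without Raji DMSO replicate 2), the members called for the difference from 19 to 27, and the related genes called for the difference from 11 (without Raji chidamide replicate 2 or Raji-4RH DMSO replicate 2) to 29.

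The replicate block left 30 members called in Raji-4RH, 20 in Raji, 22 for the difference of the effects, 29 for the lines under DMSO and 24 under chidamide. The replicate numbers are shared by label only: libraries with the same number deviated together between groups with correlations from -0.28 to 0.17, so no pairing was assumed. The ratio of PSME1 plus PSME2 to the median alpha subunit kept its direction, and without division by gene length its rise with chidamide was 1.05-fold in Raji in place of 1.31-fold. In Raji-4RH the rise without that division was also smaller than the 1.52-fold rise with it. With 2 libraries per group, depth limits the subunit genes little, since each was above 6 FPKM in every library, and the number of libraries limits the precision.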
